A study of Mus musculus with 12 samples.

Results

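Lipid-associated macrophage genes were followed in the livers of adult male mice whose mothers had or lacked vitamin D. The 10 genes, taken by name, were Gpnmb, Trem2, Cd9, Cd63, Lgals3, Mmp12, Itgax, Atp6v0d2, Ctsd and Cx3cr1, out of 52636 annotated genes with a deposited count. All 10 passed the filter on low counts, a mean of 12 fragments or more per library, and so were among the 12453 genes tested. Gpnmb, Trem2 and Mmp12 passed it only through VDD-F1: their mean counts in VDS-F1 were 4.67, 5.0 and 5.0, under the minimum, as for 2.58% of the genes tested, so these 3 had to differ in order to be tested. The mice were C57Bl/6J males at 16 weeks of age, 6 with prenatal vitamin D deficiency (VDD-F1) and 6 with prenatal vitamin D sufficiency (VDS-F1). Their mothers ate a diet without or with vitamin D from before mating until delivery, and the mothers on the deficient diet were also given calcium gluconate, which the mothers of VDS-F1 were not described as receiving. All mothers ate the sufficient diet from delivery on, and all offspring ate it after weaning, so both groups shared that diet at the time of sampling. RNA came from the left lateral lobe of the liver, with 1 library per mouse, and mice are named here by group and number (VDD1 to VDD6 and VDS1 to VDS6). The sources do not say which mice were littermates, so p-values measure the spread between mice and take them as independent.

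Lipid-associated macrophages are cells that gather where lipid is released or stored in excess, as in obese adipose tissue, fatty liver and atherosclerotic plaque. They take up lipid and dead-cell debris through surface receptors, break it down in acidified lysosomes and secrete proteases that act on the matrix. In the liver they are known to arise from blood monocytes that enter the tissue, and they differ from resident Kupffer cells, which carry Clec4f and Timd4. Several of the 10 genes also stand in the study's own list of changed genes, drawn from these same libraries, so their direction here is not independent evidence.

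The libraries held between 14275793 and 20815066 fragments counted on genes, with similar medians in VDD-F1 (16383624) and VDS-F1 (16125660). Albumin, the main product of hepatocytes, lay between 55809 and 79284 CPM (fragments on the gene scaled to library size) in all 12 libraries. The study's supplement records a liver weight for VDD4 to VDD6 and VDS3 to VDS6 (7 mice) and for none of the other 5, and each comparison was also made within these sets. Mouse VDD2 stood apart from the other mice. Its summed CPM of 16 macrophage markers was 867 against 313 to 448 in the other VDD-F1 mice and 332 to 581 in VDS-F1. Its summed CPM of 11 stellate cell markers was 1041 against 466 to 705 and 468 to 634. Fold changes of the 10 genes, and those of some lists and marker genes, are therefore also given without it. The library of VDS6 had 11.1% of its fragments outside annotated genes, against 2.52% to 4.94% in the other libraries.

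All 10 genes were higher in VDD-F1 by the sign of the log2-fold change, where 50.8% of all genes tested were, and none was called by the main test. The median log2-fold change of the 10 genes was 2.14 (1.54 without VDD2), against 0.0041 over all genes tested. Counts and medians over the 10 describe them and are no support, since 3 of them passed the filter through the group where they are high. Over the other 7 the median was 0.77, with 4 higher at an unadjusted p under 0.05 in edgeR and 3 called by DESeq2. A call needed a change of more than 1 on the log2 scale in either direction, with an adjusted p-value under 0.05 in edgeR's quasi-likelihood test, and 5 of the 12453 genes (0.0402%) met it. At an unadjusted p under 0.05 in edgeR, 7 of the 10 genes were higher in VDD-F1 (Gpnmb, Trem2, Itgax, Mmp12, Cd63, Cd9 and Cx3cr1), where 9.55% of all genes tested were. DESeq2, the tool of the study's methods, called 6 of the 10 genes as higher on the same counts (these 7 without Cd9), where it called 1.75% of all genes as higher. By its adjusted p alone, 7 of the 10 passed as higher, against 2.8% of all genes. The voom test with sample quality weights called Cd63 and Itgax, 2 of the 10, as higher, against 1.45% of all genes. In 0 of the 10 genes did the mice of the groups separate fully, as they did upward for 0.61% of genes. For 7 of the 10, 4 or more of the 6 VDD-F1 mice lay above the highest VDS-F1 mouse, a rule set after the values were seen that 8.87% of all genes met. In bulk liver, more macrophages of this kind and more RNA of these genes per cell cannot be told apart.

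**Figure D1:**
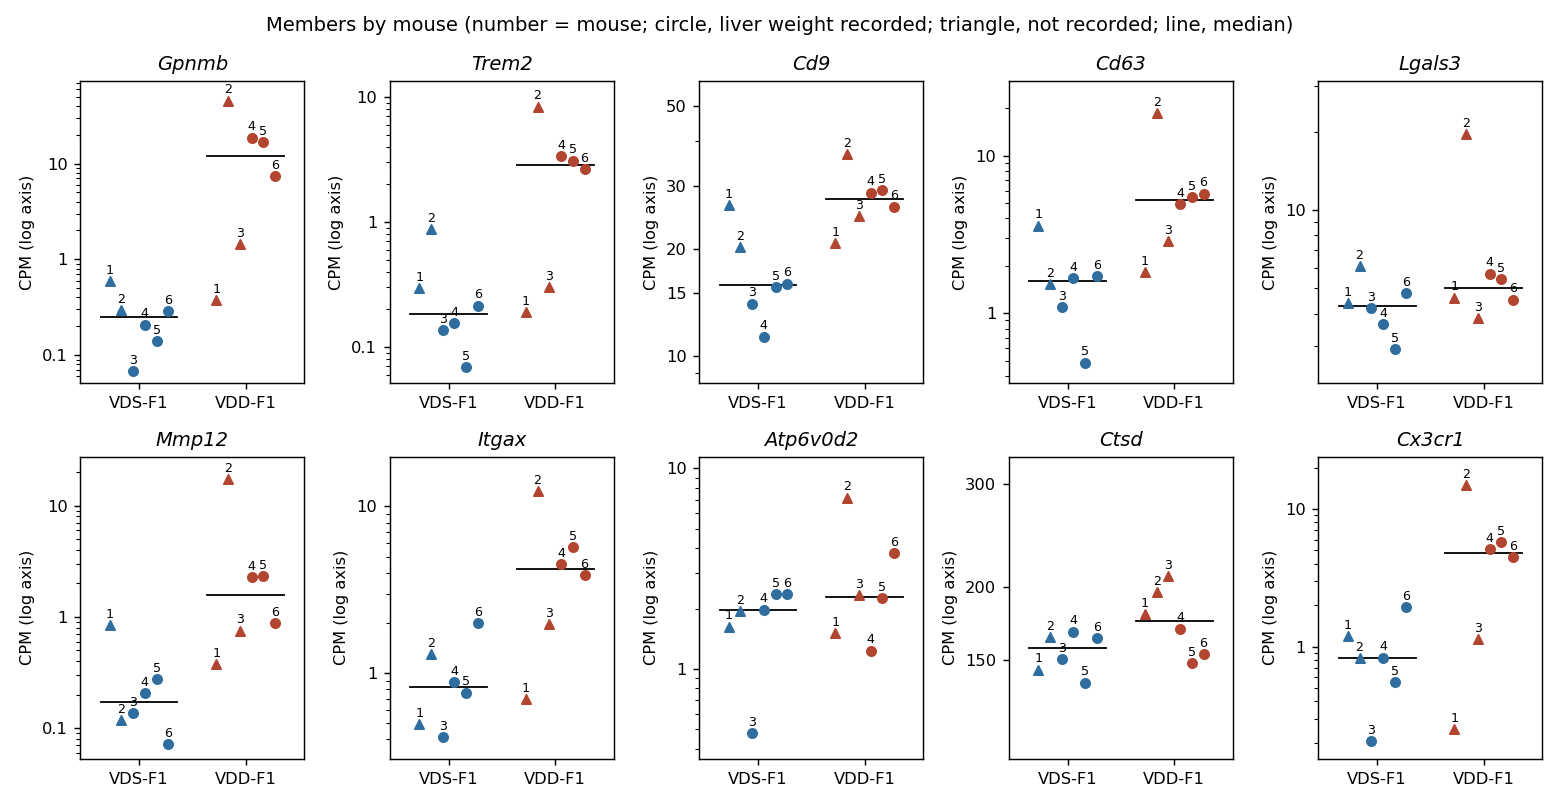
CPM of each of the 10 genes on a log axis, 1 point per mouse, with the 6 VDS-F1 mice in blue on the left and the 6 VDD-F1 mice in red on the right of each panel. Circles mark mice with a recorded liver weight, triangles those without, numbers the mouse and lines the group median; VDD2 is the highest point in 9 panels, and in Gpnmb VDD1 is the only VDD-F1 mouse within the VDS-F1 range.

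The bases just before the start of transcription are shown for the 3 genes with the largest fold changes and for Ctsd, since these 4 differ in the motifs they hold. The sequences are from RefSeq on GRCm38.p6, written 5′ to 3′ on the strand of the gene, and capitals mark a motif. The stretch of Gpnmb is chr6:49036368-49036517 on the plus strand, that of Trem2 chr17:48346251-48346400 on the plus strand and that of Mmp12 chr9:7347224-7347373 on the plus strand, before the downstream of its RefSeq starts. Each of these runs from 150 bases before the start to the base before it. The stretch of Ctsd, chr7:142387909-142387936 on the minus strand, runs from -109 to -82 and overlaps 1 exon annotated in GENCODE M21.
Gpnmb: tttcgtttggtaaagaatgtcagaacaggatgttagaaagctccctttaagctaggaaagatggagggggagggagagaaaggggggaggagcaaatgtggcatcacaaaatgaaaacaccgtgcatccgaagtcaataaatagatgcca
Trem2: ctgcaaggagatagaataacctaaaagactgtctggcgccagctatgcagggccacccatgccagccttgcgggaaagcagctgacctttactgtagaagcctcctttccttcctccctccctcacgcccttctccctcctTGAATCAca
Mmp12: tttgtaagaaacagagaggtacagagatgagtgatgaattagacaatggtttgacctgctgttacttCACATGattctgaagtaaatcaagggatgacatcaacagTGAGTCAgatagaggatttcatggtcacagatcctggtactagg
Ctsd: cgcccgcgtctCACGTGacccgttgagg
Of the 10 genes, 9 had a RefSeq promoter window here (Atp6v0d2 had none), and 4 motifs were searched on both strands in the 250 bases before each start. The E-box CACGTG, known to be bound by TFEB, TFE3 and MITF, which drive lysosomal genes, was in the window of Ctsd alone, at -245 and -98. Of all 32851 windows, 6.02% held it. The variant CATGTG, which overlaps none of the other motifs in letters, lay at -83 in Mmp12, where the capitals show it from the other strand, and at -38 in Cd9, and was in 12.3% of all windows. The AP-1 site TGANTCA lay at -9 in Trem2, -44 in Mmp12 and -56 in Itgax, and in 6.75% of all windows. The PU.1 site GAGGAAGT lay at -88 before the upstream start of Mmp12 and in 2.44% of all windows. The window of Gpnmb held none of these letters.

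Among the receptors and surface proteins, Gpnmb had the largest log2-fold change. It encodes a transmembrane glycoprotein of lipid-laden macrophages and lies at chr6:49036546-49070929 on the plus strand of GRCm38. In VDD-F1 its lowest, median and highest levels were 0.379, 12.1 and 45.4 CPM, and in VDS-F1 they were 0.0687, 0.247 and 0.592 CPM. Between 1 and 12 fragments stood behind each VDS-F1 value and up to 870 behind the VDD-F1 values. Mice VDD2, VDD4, VDD5 and VDD6 were at 7.41 CPM or more, VDD3 was lower at 1.43 CPM but still above every VDS-F1 mouse, and VDD1 lay below VDS1. The difference was 5.72 ± 0.99 on the log2 scale (SE, n = 6 and 6; edgeR adjusted p = 0.0627, DESeq2 adjusted p = 1.43e-06). This was the 8th smallest p-value in edgeR over all genes.

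Trem2 encodes a lipid-sensing receptor that signals through the adaptor Tyrobp, and lies at chr17:48346401-48354147 on the plus strand. Its levels were 0.189, 2.88 and 8.40 CPM in VDD-F1 (lowest, median and highest) and 0.0694, 0.185 and 0.885 CPM in VDS-F1. The same 4 mice, VDD2, VDD4, VDD5 and VDD6, were at 2.66 CPM or more, while VDD1 and VDD3, with 3 and 4 fragments, lay among the VDS-F1 mice. The difference was 3.31 ± 0.80 on the log2 scale (SE; edgeR adjusted p = 0.0918, DESeq2 adjusted p = 0.00160). Tyrobp itself was at 5.15 to 19.2 CPM in VDD-F1 and 5.0 to 10.03 CPM in VDS-F1, with a log2-fold change of 0.32 ± 0.30 (edgeR adjusted p = 0.644).

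Cx3cr1, the receptor for the chemokine Cx3cl1 and a gene of monocytes and their progeny, lies at chr9:119901616-120069879 on the minus strand. In VDD-F1 it was at 0.253, 4.78 and 14.98 CPM (lowest, median and highest), and in VDS-F1 at 0.206, 0.829 and 1.93 CPM. The 4 high VDD-F1 mice were again VDD2, VDD4, VDD5 and VDD6, and VDD1 was lower than 5 of the 6 VDS-F1 mice. Cx3cr1 had a log2-fold change of 2.52 ± 0.70 (SE; edgeR adjusted p = 0.113, DESeq2 adjusted p = 0.0358). Its ligand Cx3cl1, which is made by epithelial and endothelial cells, was at 0.505 to 7.52 CPM in VDD-F1 and 0.520 to 1.25 CPM in VDS-F1, and 5 of 6 VDD-F1 mice were above the VDS-F1 range. Its log2-fold change was 1.95 ± 0.49 (edgeR adjusted p = 0.0958, DESeq2 adjusted p = 0.00654).

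Itgax encodes the integrin CD11c, shared by dendritic cells and lipid-associated macrophages, and lies at chr7:128129547-128150657 on the plus strand. Its levels were 0.694, 4.20 and 12.4 CPM in VDD-F1 (lowest, median and highest) and 0.412, 0.824 and 2.003 CPM in VDS-F1. VDD3 was at 1.96 CPM, just under VDS6, and VDD1 was lower than 4 of the VDS-F1 mice. Itgax had a log2-fold change of 2.33 ± 0.57 (SE; edgeR adjusted p = 0.0918, DESeq2 adjusted p = 0.00256). Dendritic cell markers were checked beside it. Their summed CPM over 13 genes, most of it from H2-Ab1, H2-Aa and Cd74, was 101 to 192 in 5 VDD-F1 mice, 510 in VDD2 and 100.4 to 170 in VDS-F1. Of the 5 dendritic cell genes that could be tested, 1 had an unadjusted p under 0.05 in edgeR and none was called by edgeR or DESeq2. The median log2-fold change of the 5 was 0.59, and 0.11 without VDD2. The other 8 were too low to test. Of these, named after their values were seen, Clec9a, Flt3, Itgae and Siglech each had 4 of 6 VDD-F1 mice above the highest VDS-F1 mouse, with medians of 0.754, 0.725, 0.703 and 0.820 CPM in VDD-F1 against 0.319, 0.192, 0.163 and 0.458 CPM in VDS-F1. The part of dendritic cells in the Itgax result was not tested.

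The tetraspanins Cd9 and Cd63 organise membrane proteins at the cell surface and in late endosomes, and many cell types make them. Cd9 (chr6:125460266-125494791, minus strand) was at 20.7, 27.5 and 36.8 CPM in VDD-F1 (lowest, median and highest) and at 11.3, 15.8 and 26.5 CPM in VDS-F1. The groups overlapped through VDS1, which at 26.5 CPM was above 3 VDD-F1 mice, whereas the other 5 VDS-F1 mice were below every VDD-F1 mouse. The log2-fold change was 0.68 ± 0.19 (SE; edgeR adjusted p = 0.112, DESeq2 adjusted p = 0.0235). This is under the fold change that a call needs.

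Cd63 (chr10:128900989-128912822, plus strand) was at 1.83, 5.21 and 18.6 CPM in VDD-F1 (lowest, median and highest) and at 0.486, 1.599 and 3.60 CPM in VDS-F1. VDD4, VDD5 and VDD6 lay close together between 4.94 and 5.74 CPM, VDD2 was more than 3 times higher than these, and VDD1 and VDD3 were below VDS1. For Cd63 the log2-fold change was 1.94 ± 0.53 (SE; edgeR adjusted p = 0.111, DESeq2 adjusted p = 0.00725).

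Of the secreted proteins, Mmp12 (chr9:7344381-7369499, plus strand) encodes macrophage elastase, a protease that degrades elastin, and was at 0.379, 1.58 and 17.2 CPM in VDD-F1 (lowest, median and highest) and at 0.0715, 0.173 and 0.839 CPM in VDS-F1. VDS1 was the only VDS-F1 mouse above 0.28 CPM, and it lay above VDD1 and VDD3. Mmp12 had a log2-fold change of 3.75 ± 0.94 (SE; edgeR adjusted p = 0.0958, DESeq2 adjusted p = 0.00654).

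Lgals3 (chr14:47367751-47386160, plus strand) encodes galectin-3, a lectin secreted by activated macrophages that binds sugars on other proteins. It was at 3.84, 5.01 and 19.6 CPM in VDD-F1 (lowest, median and highest) and at 2.92, 4.29 and 6.08 CPM in VDS-F1. VDD2 alone lay above the VDS-F1 range, and the other 5 VDD-F1 mice lay inside it. The log2-fold change was 0.75 ± 0.37 (SE; edgeR adjusted p = 0.345, DESeq2 adjusted p = 0.271) and was 0.15 ± 0.19 without VDD2.

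Neither lysosomal gene had an unadjusted p under 0.05 in edgeR. Ctsd (chr7:142375911-142388038, minus strand) encodes cathepsin D, an aspartic protease of the lysosome in nearly all cells. It was at 148, 175 and 209 CPM in VDD-F1 (lowest, median and highest) and at 137, 157 and 168 CPM in VDS-F1. VDD3 was the highest mouse, and VDD5 and VDD6 lay inside the VDS-F1 range. For Ctsd the log2-fold change was 0.19 ± 0.10 (SE; edgeR adjusted p = 0.370, DESeq2 adjusted p = 0.370) and was 0.15 without VDD2.

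Atp6v0d2 (chr4:19876841-19922605, minus strand) encodes the d2 subunit of the proton pump that acidifies lysosomes, in a form best known from osteoclasts and macrophages. It was at 1.24, 2.30 and 7.15 CPM in VDD-F1 (lowest, median and highest) and at 0.481, 1.96 and 2.36 CPM in VDS-F1. VDD2 and VDD6 were above the VDS-F1 range, and VDD4 was below all VDS-F1 mice other than VDS3. The log2-fold change was 0.77 ± 0.43 (SE; edgeR adjusted p = 0.404, DESeq2 adjusted p = 0.367). It was 0.32 without VDD2.

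Per kilobase of exon, the 10 genes spanned a wide range of levels. In VDS-F1 the order of the medians was Ctsd (66.7 CPM per kilobase), Cd9 (7.72), Lgals3 (2.31), Atp6v0d2 (0.722), Cd63 (0.434), Cx3cr1 (0.184), Itgax (0.172), Gpnmb (0.0379), Trem2 (0.0375) and Mmp12 (0.0239). The ranges over mice did not overlap between Ctsd, Cd9, Lgals3 and Atp6v0d2, and each later neighbour overlapped the one before it. In VDD-F1 Gpnmb had the fourth highest median of the 10, at 1.86 CPM per kilobase, with a range from 0.0581 to 6.97 that overlapped those of all genes but Ctsd and Cd9.

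**Figure D2:**
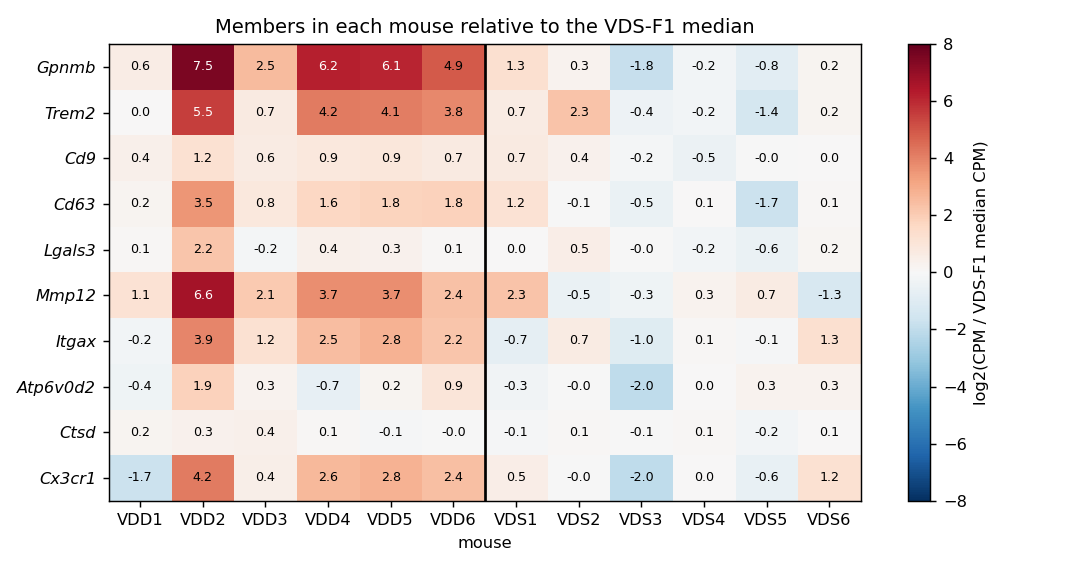
The log2 ratio of CPM in each mouse (columns) to the VDS-F1 median for each of the 10 genes (rows), with red above and blue below that median and the value printed in each cell. Gpnmb reaches 7.5 in VDD2 and 4.9 to 6.2 in VDD4, VDD5 and VDD6, while the values of Ctsd, rounded, lie between -0.2 and 0.4.

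The VDD-F1 mice differed among themselves. In 7 of the 10 genes (Gpnmb, Trem2, Cd9, Cd63, Mmp12, Itgax and Cx3cr1), VDD2 was the highest VDD-F1 mouse, VDD3 the second lowest and VDD1 the lowest. This order was noticed after the values were seen, and 4.14% of all genes tested had it. For Gpnmb, VDD2 was 184 times the VDS-F1 median, VDD4 75.3 times, VDD5 67.9 times, VDD6 30.0 times, VDD3 5.79 times and VDD1 1.53 times. VDD2 was the highest of all 12 mice for 9 of the 10 genes, where it was for 18.6% of all genes tested. The 10 genes were measured in the same livers, so these counts do not stand for separate observations.

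VDD4, VDD5 and VDD6 are the VDD-F1 mice with a recorded liver weight, and the comparison was made within each set of mice. In the 7 mice with a recorded weight, 6 of the 10 genes were called as higher in VDD-F1 by edgeR, where 3.07% of the 12369 genes tested there were. Their log2-fold changes were 6.27 for Gpnmb (SE 0.44, edgeR adjusted p = 6e-06), 4.32 for Trem2 (adjusted p = 4.8e-05), 3.30 for Mmp12 (adjusted p = 0.00240), 2.53 for Cx3cr1 (adjusted p = 0.00421), 2.21 for Itgax (adjusted p = 0.00425) and 2.10 for Cd63 (adjusted p = 0.00198). Cd9 also passed the adjusted p there (log2-fold change 0.98, edgeR adjusted p = 0.000802), which made 7 of the 10, where 5.87% of genes passed it as higher. Ctsd stood at 0.02, Lgals3 at 0.42 and Atp6v0d2 at 0.46 in these mice, and none of these 3 passed the test. Gpnmb, Trem2 and Mmp12 had passed the filter only through VDD-F1, so the counts of 6 and 7 describe the 10 genes and are no support. Among the other 7 genes, those called here were Cx3cr1, Itgax and Cd63.

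In the 5 mice without a recorded weight, 3 VDD-F1 and 2 VDS-F1, none of the 10 genes was called, and 1 of them, Gpnmb, had an unadjusted p under 0.05 in edgeR, where 2.05% of genes were so and higher. The log2-fold change of Gpnmb there was 5.12 with an SE of 2.11, against an SE of 0.44 in the other set. A difference in the diet effect between the sets was tested by an interaction term over all genes, and over all 12 mice none of the 10 genes passed it (edgeR adjusted p of 0.461 or more), while 0.0883% of all genes did. The smallest unadjusted p was that of Cd9 (0.0231), with a log2-fold change of 0.98 in the mice with and 0.23 in the mice without a recorded weight. This result rests on VDD2, the highest mouse of the set without a recorded weight. The values without VDD2 are given as a description, since VDD2 was left out after it was seen to be high. The difference in diet effect between the sets was then 5.56 ± 0.82 on the log2 scale for Trem2, 5.34 ± 0.97 for Gpnmb and 1.03 ± 0.23 for Cd9, the 3 of the 10 genes under an adjusted p of 0.05, where 2.68% of the 12369 genes tested were. Of these, Trem2 and Gpnmb had passed the filter only through VDD-F1, and VDD1 and VDD3 were the only VDD-F1 mice left without a recorded weight. With the set of mice as a covariate over all 12 mice, 1 of the 10 genes, Gpnmb, was called (edgeR adjusted p = 0.0396), where 0.0803% of genes were called as higher.

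Leaving out single mice raised or kept the number of the 10 genes called, and over all genes it raised, lowered or kept the number. Without VDD1, edgeR called 6 of the 10 genes as higher, where it called 1.7% of genes, and without VDD3 it called Gpnmb and Trem2, where it called 0.584% of genes. Without VDD2 it called none of the 10 and 0.00808% of all genes as higher, with 7 of the 10 higher at an unadjusted p under 0.05, where 7.24% of genes were. Without VDD4, VDD5 or VDD6 in turn it called no gene as higher, and 8, 8 and 9 of the 10 were higher at an unadjusted p under 0.05, where 8.6%, 8.34% and 8.47% of genes were. The log2-fold changes without VDD2 were 4.98 for Gpnmb, 2.67 for Trem2, 2.16 for Mmp12, 1.86 for Cx3cr1, 1.79 for Itgax, 1.29 for Cd63 and 0.58 for Cd9. All of these were smaller than with VDD2 and still above 0. Among VDS-F1 mice, leaving out VDS2 moved the log2-fold change of Trem2 from 3.31 to 4.02, and leaving out VDS1 moved that of Mmp12 from 3.75 to 4.55.

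**Figure D3:**
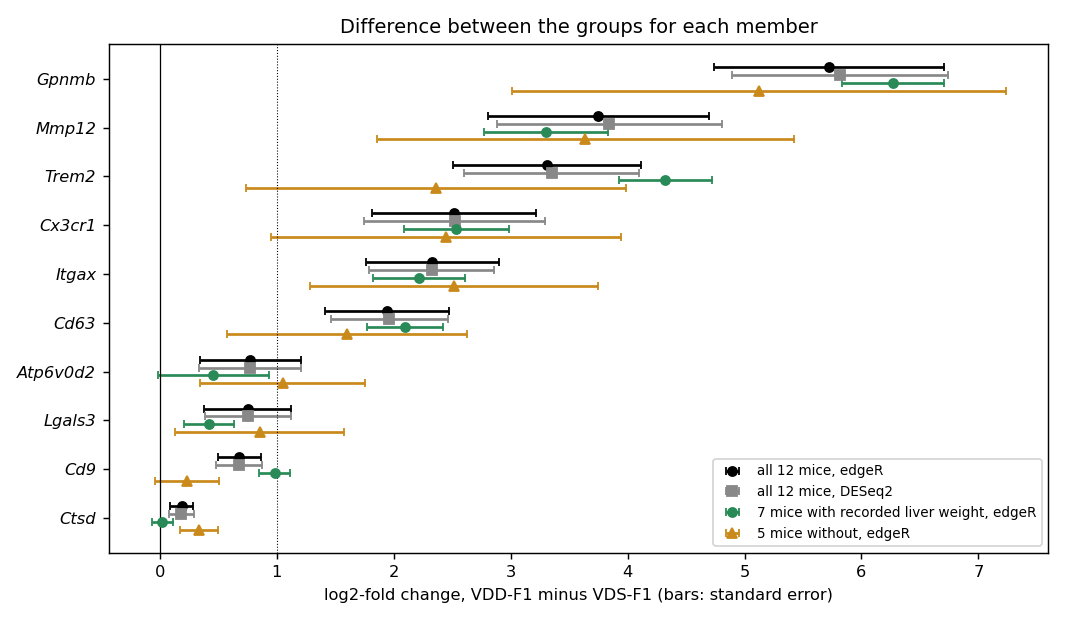
The log2-fold change of each gene, VDD-F1 minus VDS-F1, with bars of 1 standard error, from edgeR over all 12 mice (black), DESeq2 over all 12 mice (grey squares), edgeR over the 7 mice with a recorded liver weight (green) and edgeR over the 5 without (orange triangles). The dotted line marks a log2-fold change of 1; Gpnmb lies between 5.12 and 6.27 in the edgeR fits shown, and Ctsd between 0.02 and 0.34.

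The summed level of 6 general macrophage markers had similar medians in both groups. The sum of Adgre1, Csf1r, Cd68, Mpeg1, Fcgr1 and Cybb was 184, 203 and 458 in VDD-F1 (lowest, median and highest) and 168, 213 and 344 in VDS-F1, so that the ratio of the medians was 0.954. VDD2 alone lay above the VDS-F1 range. Adgre1, which encodes the F4/80 antigen, had a log2-fold change of 0.26 ± 0.26 (SE; edgeR adjusted p = 0.671). Of the 15 macrophage markers tested, 11 had a fold change above 0, 2 were higher and 0 lower at an unadjusted p under 0.05 in edgeR, and the median log2-fold change was 0.14. Lyz2, the lysozyme of macrophages and neutrophils, was 1 of these, at 14.9 to 107 CPM in VDD-F1 and 23.97 to 37.8 CPM in VDS-F1, with a log2-fold change of 0.76 ± 0.34 (edgeR adjusted p = 0.301), and at 0.31 ± 0.24 without VDD2. Csf1r, the receptor for the growth factor of macrophages, and Cd68, a lysosomal glycoprotein, are named after their values were seen, since in each 4 of the 6 VDD-F1 mice lay below the VDS-F1 range (log2-fold change -0.28 and -0.06). In the mice with a recorded liver weight, macrophage markers passed the adjusted p in both directions. Csf1r (-0.61, edgeR adjusted p = 0.00769) and Mertk, a receptor for dying cells (-0.60, edgeR adjusted p = 0.0134), were lower. Lyz2 (0.78, edgeR adjusted p = 0.000933) and Mpeg1 (0.47, edgeR adjusted p = 0.0485) were higher. Without VDD2, 0 of 14 macrophage markers were higher and 2 were lower at an unadjusted p under 0.05 in edgeR, where 7.24% and 5.33% of all genes were, and the median turned to -0.16. The 2 were Csf1r and Cd68. Relative to the sum of 6 markers, Gpnmb had a median of 0.0590 in VDD-F1 against 0.000880 in VDS-F1, 67.0 times higher, and that of Trem2 was 15.6 times higher. The factor was 9.51 for Mmp12, 7.21 for Cx3cr1, 5.76 for Itgax, 4.02 for Cd63, 1.72 for Cd9, 1.499 for Atp6v0d2, 1.32 for Lgals3 and 0.970 for Ctsd. In all, 9 of the 10 median ratios were higher in VDD-F1, where 49.9% of all genes tested were. With the 12 Kupffer cell markers or the 3 C1q genes as the denominator all 10 were, against 58.5% and 64.5% of all genes. C6 and Slc40a1, which other liver cells also make, held 55.3% to 78.7% of the Kupffer sum in each mouse. Without them all 10 ratios were again higher, but so were those of 91.2% of all genes, so nothing about the 10 genes is read from that denominator. In VDD2 the ratio of Gpnmb, 0.0992, was level with that of VDD4, 0.0995, although its CPM was more than 2 times higher. These ratios are described without a test.

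**Figure D4:**
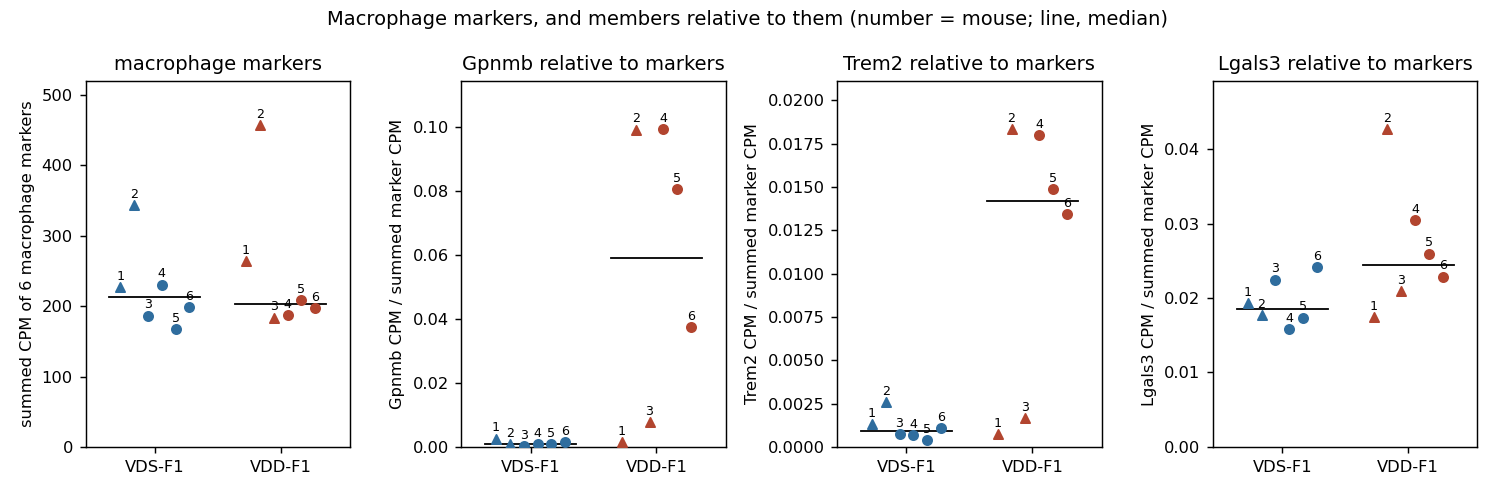
The summed CPM of 6 macrophage markers (left panel) and the CPM of Gpnmb, Trem2 and Lgals3 divided by that sum (other panels) in each mouse, on linear axes that start at 0. Points, numbers and median lines are as in the plot of CPM by mouse; the marker sum of VDD2, 458, is the highest, and its ratios for Gpnmb and Trem2 lie beside those of VDD4.

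Markers of resident Kupffer cells had a median log2-fold change of -0.13. Of 12 tested, of which Spic passed the filter only through VDD-F1, 4 were lower and 1 was higher in VDD-F1 at an unadjusted p under 0.05 in edgeR, where 6.29% of all genes were lower and 9.55% higher, and none was called. Clec4f, a lectin of Kupffer cells, was at 23.2 to 63.6 CPM in VDD-F1 and 45.1 to 76.3 CPM in VDS-F1, with a log2-fold change of -0.50 ± 0.20 (edgeR adjusted p = 0.249). Timd4, a receptor for dying cells, was at 1.95 to 5.49 CPM and 2.86 to 9.44 CPM, with -0.81 ± 0.32 (edgeR adjusted p = 0.235). In both genes 4 of the 6 VDD-F1 mice lay below the lowest VDS-F1 mouse. Cd163, a receptor for haemoglobin bound to haptoglobin, which is named after its values were seen, was at 0.892 to 21.3 CPM and 10.8 to 21.7 CPM, also with 4 of 6 VDD-F1 mice below the VDS-F1 range (log2-fold change -1.33 ± 0.60, edgeR adjusted p = 0.302, DESeq2 adjusted p = 0.332), and Folr2, a folate receptor, stood at -0.81 ± 0.29 (edgeR adjusted p = 0.201). Slc40a1, the iron exporter ferroportin, which other cells also make, was the higher gene and had the smallest p of the list. It was at 93.6 to 135 CPM in VDD-F1 and 70.1 to 96.5 CPM in VDS-F1, with 5 of 6 VDD-F1 mice above the VDS-F1 range and a log2-fold change of 0.46 ± 0.10 (edgeR adjusted p = 0.0855, DESeq2 adjusted p = 0.00654), and it alone of the 12 passed DESeq2's adjusted p. In the mice with a recorded liver weight alone, edgeR called 3 of the 12 as lower, where it called 1.26% of all genes as lower. These were Cd163 (log2-fold change -3.28), Folr2 (-1.43) and Timd4 (-1.13). Without VDD2 the median over 11 was -0.34, with Clec4f at -0.55 and Timd4 at -0.75.

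Markers of monocytes, the cells that can replace them, were low throughout. Of the 12 listed, 5 had counts high enough to test, and 3 of these were higher at an unadjusted p under 0.05 in edgeR. Ccr2 and others of the 5 had a mean count under 12 in VDS-F1 and passed the filter only through VDD-F1, so that this count is given as a description. The same holds for the median log2-fold change of the 5, 1.29, which was 0.89 over the 4 tested without VDD2. Ccr2, the chemokine receptor that brings monocytes out of the marrow, was at 0.253 to 6.63 CPM in VDD-F1 and 0.275 to 1.003 CPM in VDS-F1, with a log2-fold change of 2.14 ± 0.56 (edgeR adjusted p = 0.100, DESeq2 adjusted p = 0.00813), and 1.62 ± 0.496 without VDD2. The summed CPM of the 12 was 5.62 to 28.6 in VDD-F1 and 2.75 to 7.91 in VDS-F1, and 4 VDD-F1 mice lay above that range. Among general macrophage markers, Ms4a7, a gene of recruited macrophages, was the only 1 of the 15 tested that DESeq2 called (log2-fold change 2.57 ± 0.70 in edgeR, DESeq2 adjusted p = 0.0185). With a mean count of 23.7 in VDD-F1 against 3.5 in VDS-F1, it too passed the filter only through VDD-F1.

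Markers of other cell types were read in the same libraries, and their part in the results was not tested. Of 11 stellate cell markers, 4 were higher and 1 lower at an unadjusted p under 0.05 in edgeR. DESeq2 called Col1a1 (log2-fold change 2.27 in edgeR) and Col3a1 (1.78), which encode fibrillar collagens, and these stood at 1.81 and 1.42 without VDD2. Ecm1, an extracellular matrix protein, was the lower marker, at 58.7 to 139 CPM in VDD-F1 and 131 to 184 CPM in VDS-F1 (log2-fold change -0.72 ± 0.19, DESeq2 adjusted p = 0.0138). In the mice with a recorded liver weight, edgeR called 1 of the 11 as lower, Ecm1 (-1.22), and 3 as higher. The 3 were Col1a1 (2.67), Col3a1 (2.17) and Acta2 (2.03). Over all 12 mice the median of the 11 was 0.39, and it was 0.29 without VDD2. Of 6 cholangiocyte markers tested, 3 were higher at an unadjusted p under 0.05, 2 of the 6 passed the filter only through VDD-F1, and the summed CPM over the 8 listed was 15.02 to 55.8 in VDD-F1 and 15.9 to 27.8 in VDS-F1, with VDD2 highest. The median log2-fold change of the 6 was 0.79. Without VDD2 it was 0.26 over the 5 tested, and 0 of these were higher at such a p. Of 3 lymphocyte markers tested, Cd4 was lower (log2-fold change -0.91, DESeq2 adjusted p = 0.0420), while Cd3e stood at 0.61 ± 0.65 and Cd79a at 0.78 ± 0.57 (edgeR adjusted p = 0.693 and 0.537), of which Cd79a passed the filter only through VDD-F1. The median of the 3 was 0.61, and -0.48 over the 2 tested without VDD2. Of the 8 too low to test, Cd8a had 4 of 6 VDD-F1 mice above the VDS-F1 range, at up to 1.20 CPM against up to 0.104 CPM. The sum over 11 was 2.11 to 12.9 CPM in VDD-F1 and 3.95 to 6.11 CPM in VDS-F1. Of 8 endothelial markers, 1 was higher and 3 were lower at an unadjusted p under 0.05. None of the 3 platelet and the 4 adipocyte and mesothelial markers tested had such a p, and among the latter Wt1 passed the filter only through VDD-F1. Of 7 hepatocyte markers, Serpina1c, of a family of near-identical genes that can share reads (log2-fold change -0.60, DESeq2 adjusted p = 0.00117) and Cyp2e1 (-0.75, DESeq2 adjusted p = 0.0460) were lower, while 4 of the 7 had a fold change above 0. The median of their summed CPM was 102900 among VDD-F1 mice against 93171 among VDS-F1 mice, with 4 of 6 VDD-F1 mice above the VDS-F1 range. In the mice with a recorded liver weight, Ass1, an enzyme of the urea cycle (0.51, edgeR adjusted p = 0.00356), and Alb (0.36, edgeR adjusted p = 0.0144) were higher. Cyp2e1 (-1.26, edgeR adjusted p = 0.000129) and Serpina1c (-0.53, edgeR adjusted p = 0.00337) were lower there. Of the 7, edgeR called Cyp2e1 alone in these mice.

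The other genes of the lipid-associated macrophage state formed a list of 29, of which 23 could be tested. Of these, 9 were higher and 0 lower at an unadjusted p under 0.05 in edgeR, where 9.55% of all genes were higher, and their median log2-fold change was 0.44. None was called by edgeR. DESeq2 called 3 of them, Lpl, Emp1 and Il1rn, where it called 1.75% of all genes. Lpl, the lipase that frees fatty acids from lipoproteins, was at 10.02 to 139 CPM in VDD-F1 and 10.5 to 19.8 CPM in VDS-F1 (log2-fold change 2.14 ± 0.52, edgeR adjusted p = 0.0918, DESeq2 adjusted p = 0.0121), and stood at 1.84 ± 0.51 without VDD2. Cd36, a fatty acid receptor also made by hepatocytes, was at 63.0 to 152 CPM in VDD-F1 and 33.7 to 65.0 CPM in VDS-F1, with VDD2 not the highest mouse (log2-fold change 0.90 ± 0.22, DESeq2 adjusted p = 0.00654). Anxa5, which binds phosphatidylserine, separated the groups fully, at 99.2 to 213 CPM against 64.4 to 98.3 CPM (log2-fold change 0.90 ± 0.16, edgeR adjusted p = 0.0627, DESeq2 adjusted p = 7.8e-05). Emp1, an epithelial membrane protein, had a log2-fold change of 2.30 ± 0.57 (edgeR adjusted p = 0.0947, DESeq2 adjusted p = 0.0135). Il1rn, the antagonist of the interleukin-1 receptor, which is named after its values were seen, was at 1.68 to 10.5 CPM in VDD-F1 and 0.832 to 2.003 CPM in VDS-F1, with 5 of 6 VDD-F1 mice above the VDS-F1 range (log2-fold change 1.502 ± 0.45, edgeR adjusted p = 0.129, DESeq2 adjusted p = 0.0277). Cd36 and Anxa5 were under the fold required for a call. Without VDD2 the median of the 23 was 0.23, with 5 higher and 0 lower at an unadjusted p under 0.05.

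Of 31 lysosomal genes, all tested, 6 were higher and 0 lower at an unadjusted p under 0.05 in edgeR, where 9.55% of all genes were higher and 6.29% lower. By DESeq2's adjusted p, 5 were higher and 0 lower, where 2.8% and 1.24% of all genes were. The median log2-fold change was 0.06, and none was called by either test. The log2-fold changes of those named were 0.44 for the protease Ctsl, 0.49 for the hexosaminidase subunit Hexa, 0.38 for the progranulin gene Grn and 0.35 for the cholesterol carrier Npc2, with DESeq2 adjusted p between 0.00473 and 0.0430. Of 17 other subunits of the proton pump, 6 were higher and 1 lower at an unadjusted p under 0.05, with a median of 0.16. Atp6v1b2 and Atp6v1e1, subunits of the part that hydrolyses ATP, separated the groups fully at log2-fold changes of 0.32 ± 0.08 and 0.35 ± 0.07 (edgeR adjusted p = 0.0947 and 0.0812). Tcirg1, which encodes a subunit of the membrane part, stood at -0.42 ± 0.12 (edgeR adjusted p = 0.113, DESeq2 adjusted p = 0.0409), and Atp6v1g1 had a log2-fold change of 0.29.

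The partners, ligands and regulators of the 10 genes formed a list of 23, with 21 tested. Of these, 4 were higher and 0 lower at an unadjusted p under 0.05 in edgeR, with a median log2-fold change of 0.01. Ptgfrn, which binds Cd9 in the membrane, was at 5.55 to 21.9 CPM in VDD-F1 and 3.36 to 6.44 CPM in VDS-F1 (log2-fold change 1.354 ± 0.29, edgeR adjusted p = 0.0812, DESeq2 adjusted p = 0.00111). Timp2, an inhibitor of matrix proteases, stood at 0.76 ± 0.29, and Pparg, a lipid-sensing nuclear receptor, at 0.59 ± 0.22, with edgeR adjusted p of 0.223 and 0.220.

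**Figure D5:**
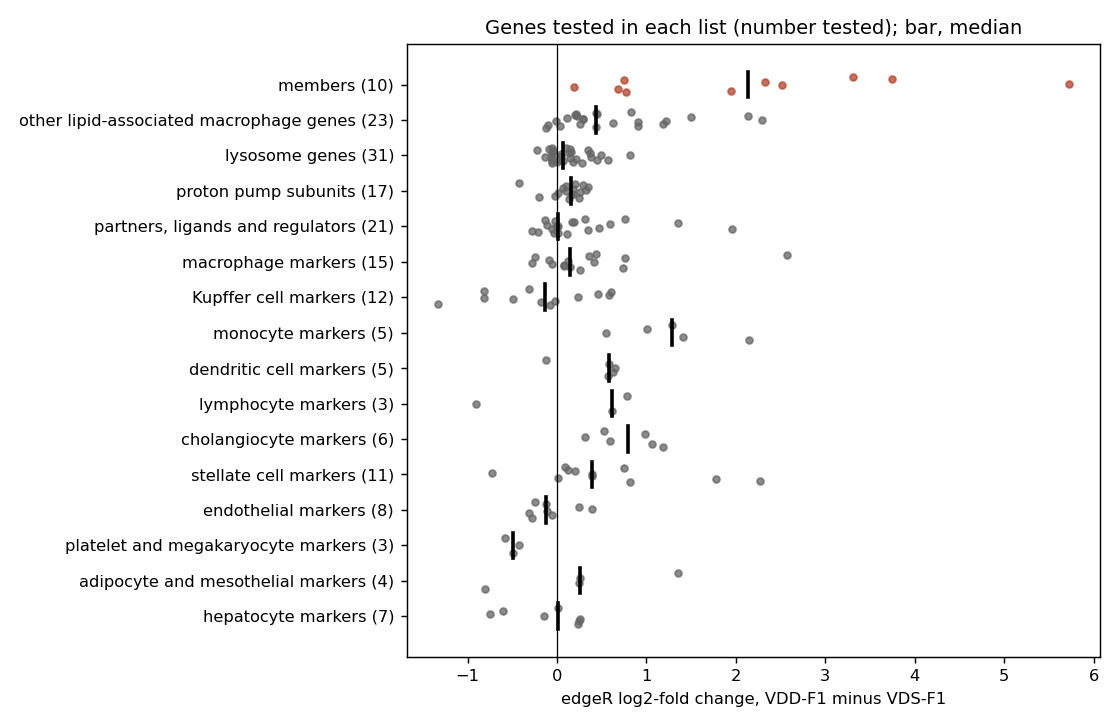
The edgeR log2-fold change, VDD-F1 minus VDS-F1, of each tested gene (points) in the 10 genes and in 15 lists of related genes and cell type markers (rows, with the number tested), with black bars at the medians. The median of the 10 genes is 2.14 and that of monocyte markers 1.29 (1.54 and 0.89 without VDD2, not shown), while those of the lysosome, Kupffer cell and hepatocyte lists are 0.06, -0.13 and 0.01.

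The genes whose levels were most like those of Gpnmb over the 12 mice were Unc5b, Adamts2, Cygb, Fbn1 and Col14a1. Their Pearson r with the log2 CPM of Gpnmb was 0.980, 0.977, 0.975, 0.967 and 0.967, and the Spearman rho lay between 0.881 and 0.944. Adamts2, Fbn1 and Col14a1 encode a procollagen protease, fibrillin-1 and a collagen of the matrix, and Cygb is known as a globin of stellate cells. Unc5b, a netrin receptor, was at 6.00 to 26.4 CPM in VDD-F1 and 5.02 to 9.48 CPM in VDS-F1. Trem2 ranked 35th by r, at 0.947, followed among the 10 genes by Itgax (0.923), Cx3cr1 (0.922), Mmp12 (0.912), Cd63 (0.906), Cd9 (0.856), Lgals3 (0.674), Atp6v0d2 (0.550) and Ctsd (0.302). Without VDD2, r was 0.922 for Trem2, 0.495 for Lgals3, 0.306 for Atp6v0d2 and 0.0724 for Ctsd. All pairs share the same 12 livers and library sizes, so these values describe likeness over these mice only.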

How the data were processed

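Liver RNA of 12 male mice, 6 VDD-F1 and 6 VDS-F1, was sequenced by the authors after removal of ribosomal RNA, with 1 library per mouse. Per the submitters' processing notes and the study's methods, reads were trimmed and aligned with STAR to mm10 (GRCm38) with GENCODE release M15. The authors deposited raw counts of fragments per gene, without normalization, as 1 count without strand and 1 for each strand. Fragments with several mapping places are not in these counts. The methods do not name the column used, and the reverse-strand count was taken here because it held 92.7% to 95.8% of the stranded counts. Symbols came from GENCODE M21, which matched 52489 of 52636 genes. Rows that name no gene (unmapped, multimapping, outside genes and ambiguous fragments) were left out of library sizes.

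In R 4.3.3, genes averaging 12 or more fragments per library were tested with edgeR 4.0.16 (legacy quasi-likelihood test after TMM scaling, Benjamini-Hochberg adjustment over all 12453 genes). CPM used the TMM library sizes, and log2 CPM a prior count of 2. DESeq2 1.42.0, voom in limma 3.58.1, other filters and scalings, the sets of mice and each mouse left out were alternatives. Tables were made in Python 3.11.15 with pandas 2.3.3 and NumPy 2.4.6, and figures with matplotlib 3.10.9. The methods were tested on simulated counts of 12365 genes with 200 changed at a log2-fold change of 2, of which edgeR called 199 with 1 false call. In that simulation the spread between mice followed the level of the gene alone, and no mouse stood apart as VDD2 did. It checks that the code runs as intended and does not show how many changes the tests find or miss in these libraries.

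The members and lists were chosen with earlier results of these data known. Named were the 10 genes, up to 4 tested genes of each other list with the smallest edgeR p, Tyrobp, Cx3cl1, Adgre1, Clec4f, Timd4 and Ccr2, and the 5 genes with the highest Pearson r with Gpnmb. Replicate numbers are sample names that mark different mice and do not pair them. No 2 libraries of a group agreed within sampling noise (chi-square per degree of freedom of 12.9 or more). At these depths, levels under 1 CPM rest on few fragments.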

Additional observations from a re-analysis of the deposited data

Results flagged for a closer look

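Of 20 groups examined (10 genes in VDD-F1 and in VDS-F1), 6 held a mouse whose gap to the nearest other mouse was beyond Dixon's critical value for 6 mice. For normally distributed values, chance alone gives about 1 in 20 groups. The rule was applied here to CPM without a log, partly from few fragments, so that rate need not hold and 6 is no measure of excess. VDD2 was such a mouse for Lgals3 (19.6 CPM, with the next VDD-F1 mouse at 5.70), Cd63 (18.6 CPM, next 5.74), Mmp12 (17.2 CPM, next 2.31) and Cx3cr1 (14.98 CPM, next 5.73). The 4 values come from 1 library. In VDS-F1, VDS2 was far from the others for Trem2 (0.885 CPM, next 0.296) and VDS1 for Mmp12 (0.839 CPM, next 0.278), which rest on 15 and 17 fragments. Without these mice the log2-fold change was 4.02 for Trem2 and 4.55 for Mmp12, against 3.31 and 3.75 with them. The difference in diet effect between the sets of mice, defined by whether a liver weight was recorded, passed the test for none of the 10 genes over all 12 mice.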

How the results depend on the processing

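All 240 log2-fold changes of the 10 genes, 24 alternatives for each, stayed above 0, and the calls depended on the test. The number of the 10 genes called as higher, 0 in the legacy form of edgeR's test, was 6 with DESeq2, 2 with voom and sample quality weights (Cd63 and Itgax), 1 each with the newer quasi-likelihood form, a total count of at least 12, no filter and the set of mice as a covariate, 6 in the mice with a recorded liver weight, and 0 to 6 with each mouse left out (6 without VDD1, 2 without VDD3). Over all genes the 5 calls became 253 with DESeq2, 252 with voom, 17 with the newer form, 2 with the robust fit, 70 without a filter, 21 with the covariate, 536 in the mice with a recorded weight, 0 in those without one, and 0 to 260 with each mouse left out. The count of 7 genes at an unadjusted p under 0.05 was 1 in the mice without a recorded weight and 7 to 9 with each mouse left out. Genes of the other lists called, 0 in the legacy form, were 9 with DESeq2, 9 with voom, 4 without a filter, 20 in the mice with a recorded weight and 0 to 9 with each mouse left out. Genes with an interaction, 11 in all, were 17 with the newer form and 3 to 332 with each mouse left out (332 without VDD2). Of the 10 genes, 0 had an interaction over all mice and 0 to 3 with each mouse left out (3 without VDD2, of which Trem2 and Gpnmb had passed the filter only through VDD-F1). The number of the 10 genes with a higher median ratio to macrophage markers was 9, where 49.9% of all genes were, and 9 to 10 with each mouse left out. It was 10 with Kupffer cell markers (58.5% of all genes) or C1q genes (64.5%) as the denominator. With Kupffer cell markers less C6 and Slc40a1, a choice made after seeing the data, it was also 10. There 91.2% of all genes were higher, so nothing is read from it. A replicate block gave 17 calls over all genes and 0 of the 10 genes. Mice of the same number had correlations of -0.138 to 0.0931 in their deviations from the group means, so the numbers do not pair them. The cause of these changes was not tested. The VDS-F1 levels of Gpnmb, Trem2 and Mmp12 rest on 1 to 17 fragments per mouse and are imprecise.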
